A study of Mus musculus with 2 samples.

Results

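The 10 genes described here encode the class I major histocompatibility complex (MHC) molecules of the mouse and the proteins that load them with peptide. They were taken by symbol (H2-K1, H2-D1, H2-Q7, H2-T22, H2-T23, H2-M3, B2m, Tap1, Tap2 and Tapbp) from a table of 43346 genes. All 10 were found, and all 10 had enough reads to be compared between libraries, as did 12467 genes in all. The RNA came from the spleen of 1 male adult C57BL/6J mouse aged 10 weeks, and the polyadenylated fraction was sequenced in 2 libraries. The labels call them technical replicates 2 and 1 of 1 biological replicate. Technical replicate 2 was made in 2015 and stood outside a publication of 2014, and the size range given for both is 350 to 450 (unit not stated). The labels name no treatment, altered allele or other animal, so each difference below is between 2 libraries of 1 organ and has no replicate check.

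Class I molecules sit on the surface of nearly every nucleated cell, where each shows a short peptide from inside the cell to CD8+ T cells and natural killer cells. Each is a heavy chain encoded in the H2 complex bound to an invariant light chain, beta-2-microglobulin. Peptides cut by the proteasome are carried into the endoplasmic reticulum by the TAP1 and TAP2 transporter and reach the heavy chain with the help of tapasin. Spleen, rich in B and T lymphocytes and macrophages, is a tissue of high class I expression.

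Technical replicate 2 held 3806381 expected counts on genes and technical replicate 1 held 27528824, a depth ratio of 7.23 in favour of technical replicate 1. All 5 B cell, all 5 T cell and all 5 red pulp macrophage markers checked reached 1 TPM (a length-corrected share of all transcripts, with a fixed total) in both libraries, and both liver markers stayed below it. All 3 pancreas markers reached 1 TPM in technical replicate 1 (Prss2 at 6.45 TPM, Cela2a at 5.74 TPM and Cpa1 at 4.8 TPM). None of them did in technical replicate 2, the shallower library. Erythroid markers, mostly globins, summed to 442700 TPM in technical replicate 2 and 43060 TPM in technical replicate 1, and all 6 were higher in technical replicate 2. With that fixed total, the erythroid share moves with every TPM below, and its part in them was not tested. Ratios below therefore use expected counts scaled by TMM (trimmed mean of M-values, which sets the bulk of genes level), as technical replicate 2 over technical replicate 1 on the log2 scale. Each has a 95% counting interval, and calls were made where that interval lay wholly beyond 1.5-fold in either direction. In bulk tissue, fewer cells of a type and less RNA per cell cannot be told apart.

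Under TMM scaling, 7 of the 10 genes were called higher in technical replicate 2 (H2-K1, H2-D1, H2-T23, H2-M3, Tap1, Tap2 and Tapbp), and 1, H2-Q7, was called lower. Of all 12467 tested genes, 28.0% were called higher and 32.6% lower. The median log2 ratio was 1.60 over the 10 genes and -0.27 over all tested genes. Directions rest partly on the scaling, since TMM places every log2 ratio 1.26 above total counts. H2-D1, H2-T23, Tap2 and Tapbp were higher, and H2-Q7 lower, under TMM, DESeq2 size factors and total counts alike. The same held for 14.6% of all tested genes in the higher direction and 30.5% in the lower. Since total counts place every ratio lower than TMM, the last 2 shares are not symmetric. A scaling shifts all log2 ratios by the same amount, so the spread among the members is the same under each by arithmetic. The distance from the lowest, H2-Q7, to the highest, Tap2, was 6.64 on the log2 scale. It was 4.62 with a trend in GC content and length removed, as described below.

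**Figure D1:**
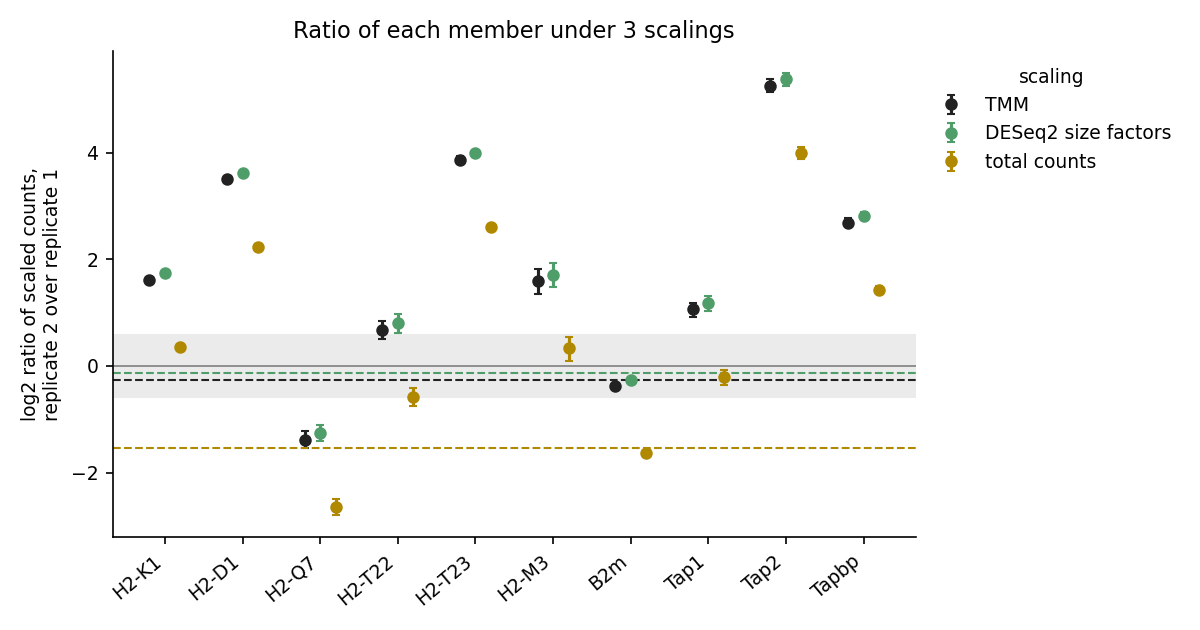
Log2 ratio of scaled counts (y axis), technical replicate 2 over technical replicate 1, for each of the 10 genes under 3 scalings, with 95% counting intervals that are often smaller than the points. Dashed lines are the medians of all tested genes and the grey band is 1.5-fold. H2-D1, H2-T23, Tap2 and Tapbp lie above the band under each scaling and H2-Q7 below it.

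Among the classical heavy chains, which present peptide to CD8+ T cells, H2-D1 and H2-K1 changed places. H2-D1 (chr17:35262730-35267499) stood at 1076 TPM in technical replicate 2 and 869 TPM in technical replicate 1, from 12406 and 18958 expected counts. Its log2 ratio was 3.50 (95% interval 3.47 to 3.54), above that of 93.9% of tested genes. H2-K1 (chr17:33996017-34000347) stood at 618 TPM in technical replicate 2 and 1108 TPM in technical replicate 1, from 5232 and 29644 counts. Its log2 ratio of 1.61 (1.57 to 1.66) was called higher under TMM, but was 0.35 under total counts, and the TPM ran the other way. H2-D1 therefore had the higher level of the pair in technical replicate 2 and H2-K1 in technical replicate 1. The TPM of H2-D1 over that of H2-K1 was 1.74 in technical replicate 2 and 0.784 in technical replicate 1, a comparison within each library that no scaling moves. As counts, this ratio was 2.37 (2.30 to 2.45) in technical replicate 2 and 0.640 (0.628 to 0.651) in technical replicate 1, a 3.71-fold difference.

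The nonclassical heavy chains, which bind narrower sets of peptides or none, went in both directions. H2-T23 encodes Qa-1, the ligand of the inhibitory CD94/NKG2A receptor of natural killer cells. It stood at 431.5 TPM in technical replicate 2 and 143 TPM in technical replicate 1, with a log2 ratio of 3.87 (3.81 to 3.94). It was called higher under all 3 scalings, and its TPM was higher too. H2-Q7, a Qa-2 gene, stood at 45.3 TPM (344 counts) in technical replicate 2 and 257 TPM (15516 counts) in technical replicate 1, with a log2 ratio of -1.38 (-1.54 to -1.22). It was the only one of the 10 genes called lower under TMM. H2-M3, which presents peptides that begin with formylmethionine, stood at 24.2 TPM in technical replicate 2 and 44.7 TPM in technical replicate 1, and its log2 ratio of 1.59 (1.36 to 1.82) was called higher under TMM but was 0.33 under total counts. H2-T22, a ligand of some gamma delta T cells, stood at 33.7 TPM in technical replicate 2 and 95.6 TPM in technical replicate 1. Its log2 ratio of 0.68 (0.50 to 0.85) was not called under TMM, was called higher at 0.80 (0.62 to 0.97) under DESeq2 size factors, and was -0.59 under total counts. H2-T23 and H2-T22 are neighbours on chromosome 17, and the TPM of H2-T23 over that of H2-T22 was 12.8 in technical replicate 2 and 1.5 in technical replicate 1.

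B2m (chr2:122147686-122153083) is the light chain that pairs with the heavy chains above. It had 651 TPM in technical replicate 2 and 4894 TPM in technical replicate 1, from 2772 and 62659 counts. Its log2 ratio was -0.38 (-0.44 to -0.33) under TMM, which was not called, and -1.64 (-1.70 to -1.59) under total counts, which was called lower. The 6 heavy chains together held 3.42 times the TPM of B2m in technical replicate 2 and 0.514 times in technical replicate 1. In technical replicate 1, B2m had the highest level of the 10 genes, while in technical replicate 2 it lay below H2-D1.

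The peptide loading genes also diverged. Tap2 (chr17:34203527-34216321), the second chain of the peptide transporter, stood at 131 TPM in technical replicate 2 and 29.7 TPM in technical replicate 1, from 1878 and 852 counts. With a log2 ratio of 5.26 (5.14 to 5.38) it had the highest ratio of the 10 genes. Tap1, the partner chain, stood at 32.6 TPM in technical replicate 2 and 72.7 TPM in technical replicate 1. Its log2 ratio of 1.06 (0.92 to 1.19) was called higher under TMM, but was -0.21 under total counts. The transporter is a pair of both chains, yet Tap2 over Tap1 was 4.01 as a TPM ratio in technical replicate 2 and 0.409 in technical replicate 1. Tapbp, which encodes tapasin, stood at 116 TPM in technical replicate 2 and 120 TPM in technical replicate 1, and its log2 ratio of 2.69 (2.62 to 2.77) was called higher under all 3 scalings. Tap1 overlaps Psmb9 by 212 bases on the opposite strand, and Psmb9 stood at 244 TPM in technical replicate 2 and 126 TPM in technical replicate 1. Tapbp overlaps Zbtb22 by 3422 bases on its own strand, but Zbtb22 stood at only 4.61 TPM in technical replicate 2 and 8.19 TPM in technical replicate 1. The labels and headers do not say whether counting used strand, so reads in such overlaps cannot be told apart.

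**Figure D2:**
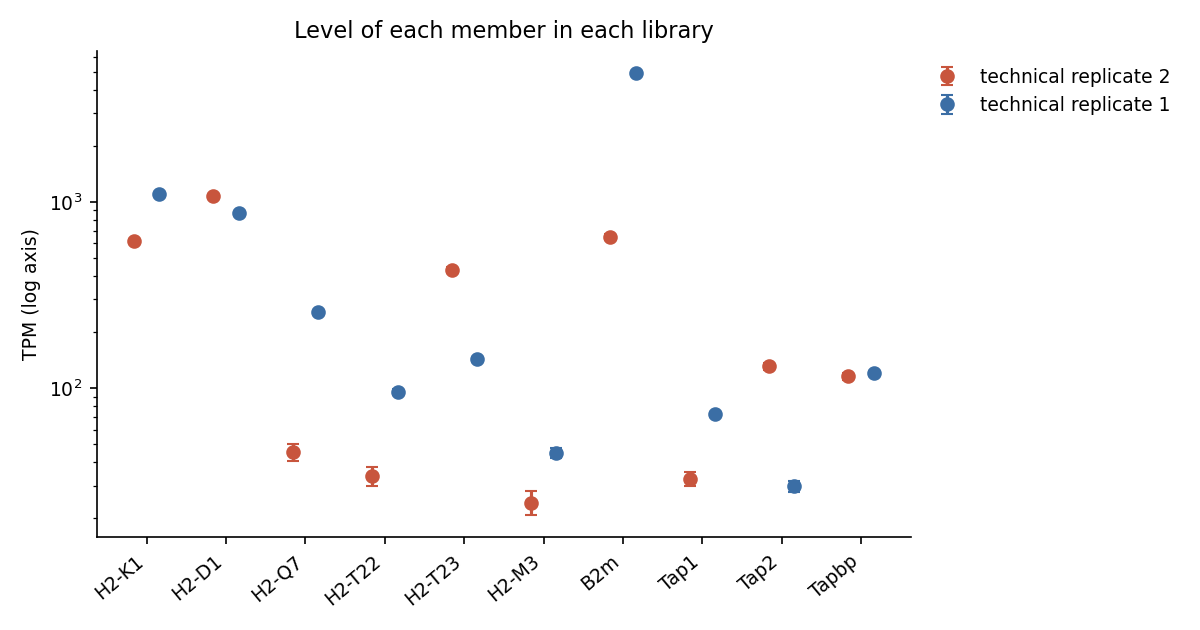
TPM (y axis, log scale) of each of the 10 genes in technical replicate 2 (left point of each pair) and technical replicate 1 (right point), with 95% Poisson intervals of the counts carried to TPM, often smaller than the points. H2-D1, H2-T23 and Tap2 are higher in technical replicate 2. The widest gap in TPM is that of B2m, at 651 TPM in technical replicate 2 and 4894 TPM in technical replicate 1.

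From high to low TPM, the order in technical replicate 2 was H2-D1, B2m, H2-K1, H2-T23, Tap2, Tapbp, H2-Q7, H2-T22, Tap1 and H2-M3. B2m (627 to 675.5 TPM) and H2-K1 (601 to 635 TPM) had overlapping counting intervals, as did H2-T22 (29.9 to 37.7 TPM) and Tap1 (29.8 to 35.7 TPM), so neither pair is ordered beyond counting error. In technical replicate 1 the order was B2m, H2-K1, H2-D1, H2-Q7, H2-T23, Tapbp, H2-T22, Tap1, H2-M3 and Tap2, and no neighbours overlapped. Tap2 had the lowest level of the 10 genes in technical replicate 1 and ranked 5 of 10 in technical replicate 2.

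Heavy chain genes resemble each other closely, so the division of reads among them bears on each value. Of the 50-base words in the reference transcripts of H2-T22, 34.5% also occur in transcripts of another gene, 31.2% in H2-T10. For H2-Q7 the share was 26.4%, for H2-T23 13.6%, for H2-D1 12.8%, and for H2-K1 308 of 3032 words were shared. The rest were nearly unique, with 0.576% for H2-M3, 1.15% or less for Tap1, Tap2 and Tapbp, and none for B2m. Words were searched for only in deposited transcripts that matched the reference. No deposited gene carried the symbol H2-L, H2-Q8, H2-Q9, H2-T7 or H2-T9, so sharing under those names was not assessed. The posterior SD of a gene's count, as deposited, was at most 1.53 counts in technical replicate 2 and 13.2 in technical replicate 1, both for heavy chains of the Q and T regions.

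Sums depend less on that division. The 6 heavy chains summed to 22101 counts and 2228 TPM in technical replicate 2, and to 72691 counts and 2517 TPM in technical replicate 1. Their summed log2 ratio was 2.40 (2.38 to 2.42) under TMM and 1.14 under total counts, while as TPM it was -0.18. B2m, Tap1, Tap2 and Tapbp summed to 7005 counts and 930 TPM in technical replicate 2, and to 72546 counts and 5117 TPM in technical replicate 1. That log2 ratio was 0.74 (0.71 to 0.78) under TMM and -0.52 under total counts, so its direction turned with the scaling. Over all 30 class I heavy chain genes of the H2 complex with a row, a sum added after the data were seen, the log2 ratio was 2.08.

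Within this pool of heavy chain TPM, H2-D1 held 46.5% in technical replicate 2 and 26.2% in technical replicate 1, and H2-T23 held 18.6% and 4.33% in the same order. H2-K1 held 26.7% in technical replicate 2 and 33.5% in technical replicate 1. H2-Q7 held 1.96% in technical replicate 2 and 7.77% in technical replicate 1, and the 24 class I genes outside the 10 held 3.77% and 24% in the same order. In technical replicate 2 the pool was thus concentrated in 3 genes, H2-D1, H2-K1 and H2-T23.

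**Figure D3:**
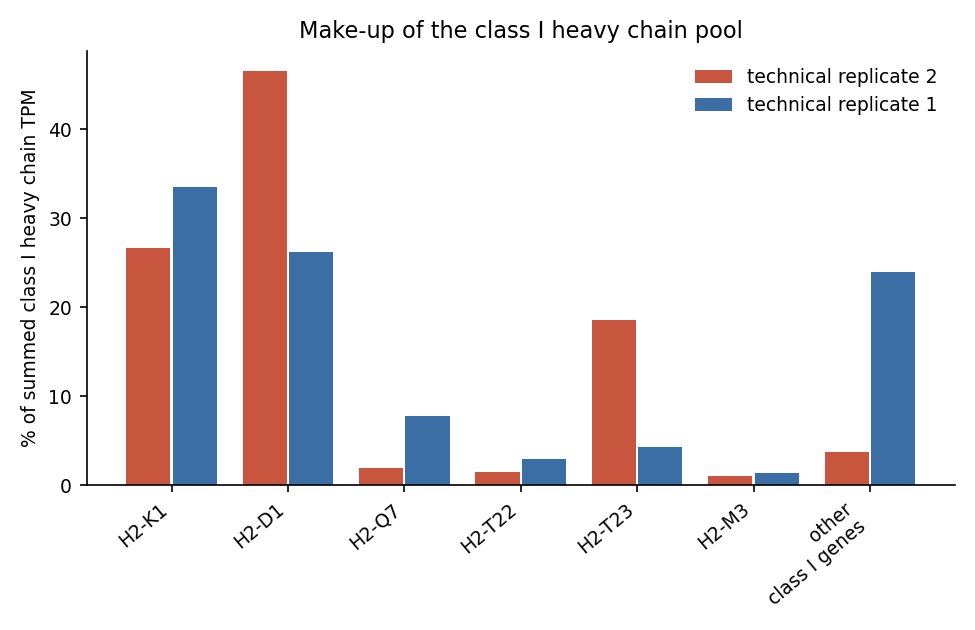
Share (y axis, %) of the summed TPM of 30 class I heavy chain genes held by each of the 6 genes described here and by the 24 others together, in technical replicate 2 (left bar) and technical replicate 1 (right bar). H2-D1 and H2-T23 hold larger shares in technical replicate 2, and the 24 others hold 3.77% there against 24% in technical replicate 1.

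Of those 24 other heavy chain genes, 13 were listed at 0 in both libraries and 9 were tested, with a median log2 ratio of -0.64. H2-T10 was higher under TMM, at a log2 ratio of 1.29 (1.01 to 1.55), but was 0.02 and uncalled under total counts. H2-Q5, H2-T24 and H2-M2 were lower under all 3 scalings. H2-Q6 stood at 38.5 TPM in technical replicate 2 and 272 TPM in technical replicate 1, and H2-Q4 at 25.5 TPM and 180 TPM, both uncalled at -0.37 and -0.31. H2-Q5 had 7 counts in technical replicate 2 and 624 in technical replicate 1, a log2 ratio of -2.36 (-3.68 to -1.31). H2-T24 had 17 counts in technical replicate 2 and 2189 in technical replicate 1, a log2 ratio of -2.89 (-3.67 to -2.21). Among class I-like genes outside the complex, Fcgrt, the receptor that recycles immunoglobulin G, was higher at 3.46 (3.28 to 3.64), while Mr1 and Hfe were lower and Cd1d1 was uncalled at 0.23.

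The promoters of H2-K1, H2-D1 and H2-Q7 resemble each other, and the TMM-scaled ratios of these genes ran from 3.50 to -1.38. Any link between promoter sequence and ratio was not tested. Those of H2-K1 and H2-Q7 are shown with that of B2m, and the H2-D1 stretch, which overlaps an annotated exon, is not printed. Each line gives bases upstream of the start site that lie outside annotated exons, read 5′ to 3′ on the gene's strand from RefSeq (GRCm38.p6). Capitals mark matches, on either strand, to GGGGATTCC (an NF-kappaB site core), GAAANNGAA or GAANNGAAA (interferon response element cores, of which GAANNGAAA was added after the promoters had been read), TGACG (the X2 or site alpha core) and CCAAT (the Y box).
H2-K1 (chr17:34000348-34000468, minus strand): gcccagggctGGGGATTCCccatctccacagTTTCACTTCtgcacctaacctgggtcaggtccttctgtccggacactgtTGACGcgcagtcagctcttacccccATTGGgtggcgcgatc
H2-Q7 (chr17:35439012-35439153, plus strand): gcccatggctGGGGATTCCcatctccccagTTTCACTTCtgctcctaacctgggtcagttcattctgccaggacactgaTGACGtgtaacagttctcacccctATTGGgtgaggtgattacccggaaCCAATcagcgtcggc
B2m (chr2:122147538-122147648, plus strand): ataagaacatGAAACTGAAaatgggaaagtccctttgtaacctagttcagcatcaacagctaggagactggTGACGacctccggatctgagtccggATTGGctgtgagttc

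Over the stretch from the first to the last of these matches, with 10 bases on each side where available, H2-Q7 was 78.5% identical to H2-K1 and 84.0% identical to H2-D1, and H2-D1 was 82.6% identical to H2-K1. B2m was 47.4% to 49.0% identical to those 3. Their log2 ratios were 3.50 for H2-D1, 1.61 for H2-K1, -0.38 for B2m and -1.38 for H2-Q7. Of the 10 genes, 9 had a promoter in the RefSeq table, all but Tap2. GGGGATTCC was found in H2-K1, H2-D1 and H2-Q7, and in 0.25% of all 32851 promoters of the table. GAANNGAAA was found in 4 of the 9 (H2-K1, H2-D1, H2-Q7 and H2-M3) against 7.52% of all promoters, and GAAANNGAA in 3 (H2-T22, H2-T23 and B2m) against 8.56%. TGACG was found in 7 of 9 against 20.8%, and CCAAT in 9 of 9 against 37.4%. A match describes letters in the window and no more.

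The transcripts that made up each gene's level differed between the libraries. IsoPct, the deposited percentage of a gene's TPM held by a transcript, named the same leading transcript in both libraries for 4 of the 8 genes with several transcripts (H2-D1, H2-T23, Tap2 and Tapbp). The share was 56.0% over 5402 genes of at least 10 TPM on average, so 4 of 8 lies near the background. For H2-K1, H2-Q7, H2-T22 and Tap1 the leading transcript differed. B2m and H2-M3 have 1 transcript each.

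**Figure D4:**
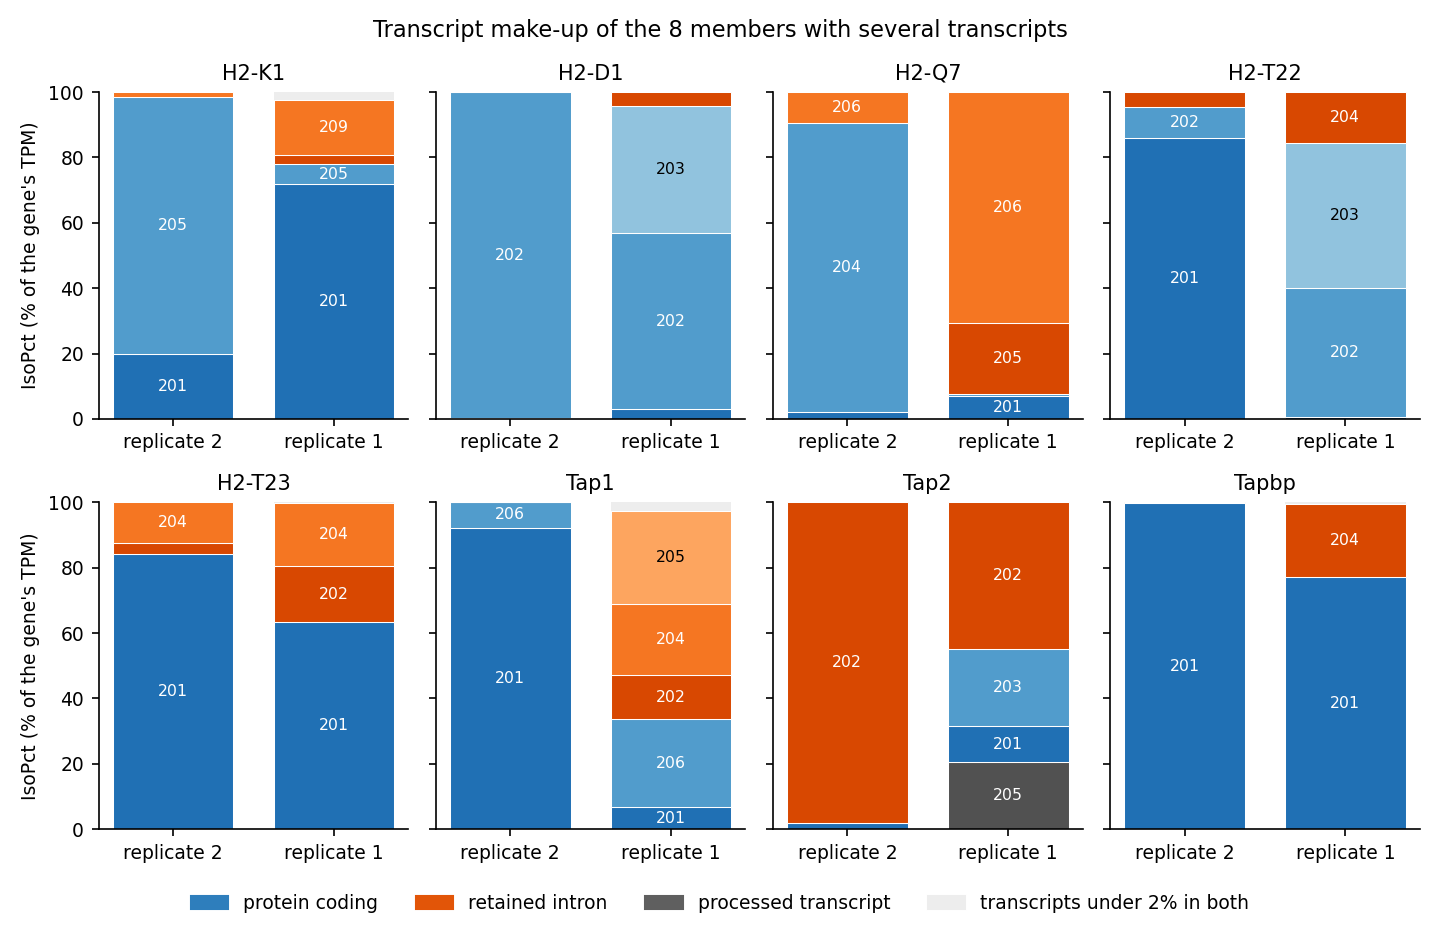
IsoPct (y axis, % of the gene's TPM) of the transcripts of 8 genes in technical replicate 2 (left bar) and technical replicate 1 (right bar). Blue is protein coding, orange retained intron, dark grey processed transcript, and numbers are transcript suffixes. The leading block changes in H2-K1, H2-Q7, H2-T22 and Tap1, and orange shrinks in technical replicate 2 in each gene except Tap2.

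H2-K1-205 held 78.5% of H2-K1 in technical replicate 2 and 6.18% in technical replicate 1, while H2-K1-201 held 19.9% and 71.7% in the same order. As a share of the gene's expected counts, H2-K1-205 held 78.1% (exact Clopper-Pearson 95% interval 76.9 to 79.2) in technical replicate 2 and 6.09% (5.83 to 6.37) in technical replicate 1. Both encode the H2-K1 heavy chain and differ in the last coding exon, which belongs to the cytoplasmic tail. H2-T22-201 held 85.9% of H2-T22 in technical replicate 2 and 0.580% in technical replicate 1, where H2-T22-203 (44.3%) and H2-T22-202 (39.5%) led. H2-T22-201 lacks the exon that in class I genes encodes the transmembrane segment. Tap1-201 held 92.2% of Tap1 in technical replicate 2 and 6.74% in technical replicate 1. In technical replicate 1 the retained intron transcript Tap1-205 led with 28.5%, followed by Tap1-206 with 26.9%, and Tap1-204 (21.8%) and Tap1-202 (13.5%) also retain introns. In technical replicate 2, Tap1-206 held 7.76% and these 3 held 0%. Tap1-201 lacks 84 coding bases, 28 codons, that Tap1-206 has.

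Each pair of transcripts differs at several places, ends included, and 1 internal stretch per pair is shown here to let the difference be seen. Capitals mark bases present in the first-named transcript and absent from the other, with up to 15 flanking bases in lower case, in GENCODE M21 transcripts on GRCm38, 5′ to 3′ along the transcript.
H2-K1-201, absent from H2-K1-205 (chr17:33996477-33996503, minus strand, 27 bases, coding): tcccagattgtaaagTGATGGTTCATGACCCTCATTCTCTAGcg
H2-T22-202, absent from H2-T22-201 (chr17:36040225-36040329, minus strand, 105 bases, coding): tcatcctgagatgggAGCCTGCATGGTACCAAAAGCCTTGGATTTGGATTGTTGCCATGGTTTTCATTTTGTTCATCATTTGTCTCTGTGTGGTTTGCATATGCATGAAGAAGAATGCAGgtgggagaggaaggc
Tap1-206, absent from Tap1-201 (chr17:34192858-34192941, plus strand, 84 bases, coding): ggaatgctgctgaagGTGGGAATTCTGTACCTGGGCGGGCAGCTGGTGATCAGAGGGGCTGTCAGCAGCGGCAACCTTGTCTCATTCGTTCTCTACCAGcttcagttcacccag
Tap2-202, absent from Tap2-201 (chr17:34212068-34212229, plus strand, 162 bases, a retained intron): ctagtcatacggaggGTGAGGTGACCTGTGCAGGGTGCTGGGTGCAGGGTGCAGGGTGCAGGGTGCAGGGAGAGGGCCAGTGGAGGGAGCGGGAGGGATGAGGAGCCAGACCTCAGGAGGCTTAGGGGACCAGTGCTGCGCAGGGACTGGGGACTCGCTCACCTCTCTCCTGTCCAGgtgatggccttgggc

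The deposited posterior SD shows how well such splits were resolved. H2-K1-205 had 4085 counts with a posterior SD of 89.6 in technical replicate 2, and 1807 with an SD of 62.6 in technical replicate 1. Tap1-201 had 438 counts with an SD of 17.3 in technical replicate 2, and 227 with an SD of 90.8 in technical replicate 1. H2-T22-202 had 29.0 counts with an SD of 22.4 in technical replicate 2, so its presence there was hardly resolved, and 1085 with an SD of 63.1 in technical replicate 1.

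H2-Q7 also turned over. H2-Q7-204, annotated as protein coding, held 88.4% of its TPM in technical replicate 2 and 0.540% in technical replicate 1. H2-Q7-206, a retained intron transcript of 4209 bases, held 9.37% in technical replicate 2 and 70.5% in technical replicate 1, and H2-Q7-205, another, held 0% and 21.9%. H2-Q7-204 holds none of the exons numbered 4 and 5 of H2-Q7-201 (285 and 117 bases), which in class I genes encode the alpha 3 domain and the transmembrane segment. Protein coding transcripts of H2-Q7 together held 41.0 TPM in technical replicate 2 and 19.6 TPM in technical replicate 1. The lower level of the gene in technical replicate 2 thus lay mainly in its retained intron transcripts. They held 4.24 TPM in technical replicate 2 and 238 TPM in technical replicate 1. Of the coding transcripts, H2-Q7-204 was the higher one, with 235 counts in technical replicate 2 and 25.2 in technical replicate 1. H2-Q7-201, which has both exons, was lower as TPM. It held 1.01 TPM (7.58 counts) in technical replicate 2 and 18.02 TPM (419 counts) in technical replicate 1.

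Tap2 was the reverse case. Tap2-202, a retained intron transcript, led in both libraries, with 98.0% in technical replicate 2 and 45.0% in technical replicate 1. As levels this was 128 TPM in technical replicate 2 and 13.4 TPM in technical replicate 1, while protein coding Tap2 transcripts held 2.57 TPM in technical replicate 2 and 10.25 TPM in technical replicate 1. The higher TPM of Tap2 in technical replicate 2 therefore lay in a transcript annotated as not coding for the transporter chain. Of the coding sum in technical replicate 1, the short Tap2-203 held 6.98 TPM. Tap2-201 held 2.57 TPM in technical replicate 2 and 3.27 TPM in technical replicate 1, from 49.9 and 203 counts. TMM-scaled counts of single transcripts were not compared. The 2 short transcripts Tap2-203 and Tap2-205 held 23.5% and 20.5% in technical replicate 1, from only 24.9 and 18.1 counts, and 0% in technical replicate 2.

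H2-D1-202 held 99.8% of H2-D1 in technical replicate 2 and 54.1% in technical replicate 1, where H2-D1-203, a coding fragment of 391 bases, held 38.6%. By counts the leading transcript held 90.6% (90.2 to 91.0) in technical replicate 1, so the fragment weighed on the TPM more than on the reads. It shortened the effective length of the gene to 1140 bases in technical replicate 1, against 1964 in technical replicate 2, and TPM divides counts by that length. H2-T23-201 held 84.0% of H2-T23 in technical replicate 2 and 63.2% in technical replicate 1. Tapbp-201 held 99.7% of Tapbp in technical replicate 2 and 77.2% in technical replicate 1, with Tapbp-204, a retained intron transcript, at 0.320% and 22.4%.

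Summed over each gene's retained intron transcripts, a measure chosen after the data were seen, the share was lower in technical replicate 2 in 7 of the 8 genes that have such transcripts and higher in Tap2. The median share was 3.19% in technical replicate 2 and 29.8% in technical replicate 1 over these 8. Over 3266 genes with such transcripts it was 0% in technical replicate 2 and 12.5% in technical replicate 1, and 73.1% of them had a lower share in technical replicate 2. Tap1 had 0% of its TPM in such transcripts in technical replicate 2, against 64.7% in technical replicate 1.

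GC content moved with the ratios, and transcript length did so over all tested genes but hardly over the 10 genes. The transcripts of Tap2 had a GC content of 58.6%, those of Tapbp 57.1% and those of B2m 41.2%, against a median of 49.6% over tested genes. Spearman's rho between ratio and GC was 0.661 over the 10 genes and 0.532 over tested genes. Between ratio and length it was -0.0788 over the 10 genes and -0.386 over tested genes. These values are given as a description, since all points share the same 2 libraries. With the GC and length trend over all tested genes removed, Tap2 stood at a log2 ratio of 2.94, H2-T23 at 2.39, H2-D1 at 1.87 and Tapbp at 1.03, all called higher, and H2-Q7 at -1.68, called lower. H2-K1 (-0.14), Tap1 (-0.12) and H2-M3 (0.74) were then uncalled. Of the 12425 tested genes with a GC value, 2742 were called higher and 3592 lower after this step. The median over the 10 genes was 0.34 after this step, against -0.27 over all tested genes with a GC value.

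**Figure D5:**
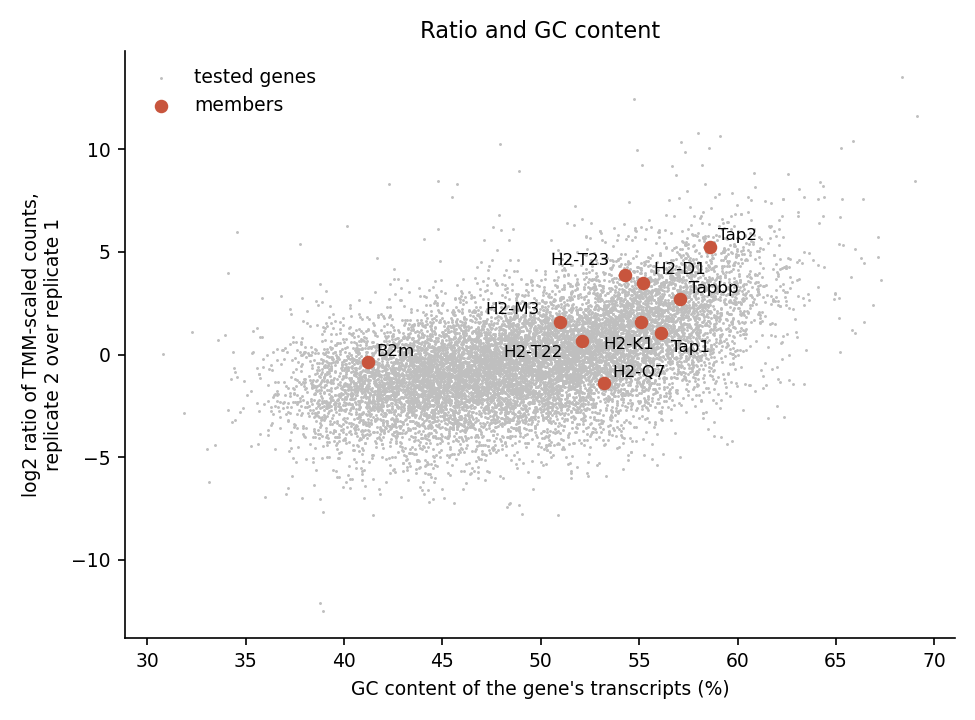
Log2 ratio of TMM-scaled counts (y axis), technical replicate 2 over technical replicate 1, against GC content of a gene's transcripts (x axis, %). Grey points are tested genes and red points are the 10 genes. Both clouds climb with GC content, and H2-Q7 lies low for its GC content of 53.2%.

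Genes that supply peptide were mostly proteasome subunits at the high end and peptidases at the low end. Of 14, 7 were called higher and 4 lower (6 and 4 under all 3 scalings). Over all tested genes, 28.0% were called higher and 32.6% lower (14.6% and 30.5% under all 3). The list median was 1.48 against -0.27 over all tested genes. Psmb10, an immunoproteasome subunit, stood at 392 TPM in technical replicate 2 and 11.9 TPM in technical replicate 1, a log2 ratio of 7.53 (7.34 to 7.73). Psmb9, another such subunit, was at 2.96 (2.84 to 3.08), and Psme2 of the PA28 activator at 2.52 (2.43 to 2.61). High ratios were not particular to immunoproteasome subunits. Of the standard proteasome, Psmb5 was at 3.88 (3.67 to 4.09) and Psmb6 at 3.76 (3.61 to 3.91), both above Psmb9. Psmb8 of the immunoproteasome was at 2.26, and Psmb7 of the standard proteasome at 1.40, uncalled under total counts (0.14). Psme1, its partner subunit, was uncalled at 0.56 (0.41 to 0.70). The 4 lower genes were the peptidases Erap1, Lnpep, Npepps and Tpp2, with Erap1, which trims peptides in the endoplasmic reticulum, at -1.98 (-2.37 to -1.62). Not all peptidases were lower, since Thop1 at 1.56 (0.42 to 2.54) and Lap3 at -0.15 (-0.57 to 0.25) were uncalled.

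Of 8 chaperones and editors of the endoplasmic reticulum, Calr and Tapbpl were called higher and Canx lower. Over all tested genes the shares were 28.0% and 32.6%. The list median was -0.14 against -0.27 over all tested genes. Under total counts Calr (0.47) and Tapbpl (0.54) were uncalled, while Canx was lower under all 3 scalings. Calr, the calreticulin of the loading complex, stood at 296 TPM in technical replicate 2 and 744 TPM in technical replicate 1, with a log2 ratio of 1.74 (1.68 to 1.79). Canx, the related calnexin, stood at 12.5 TPM in technical replicate 2 and 247 TPM in technical replicate 1, with a log2 ratio of -1.36 (-1.53 to -1.20). Pdia3, the thiol oxidoreductase that pairs with tapasin, was uncalled at -0.06 (-0.16 to 0.04), and Hspa5 was uncalled at -0.61.

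Among 13 transcriptional regulators of class I genes, 4 were called higher and 7 lower (2 and 7 under all 3 scalings). Over all tested genes, 28.0% were called higher and 32.6% lower (14.6% and 30.5% under all 3). The list median was -1.56 against -0.27 over all tested genes. Nlrc5, the class I transactivator, stood at 7.35 TPM in technical replicate 2 and 97.0 TPM in technical replicate 1, a log2 ratio of -1.92 (-2.28 to -1.58). Nfkb1, an NF-kappaB subunit, was at -2.96 (-3.43 to -2.53), while Rela, another such subunit, was at 2.47 (2.29 to 2.65). Rela and Rfxank, at 2.75 (2.43 to 3.06), were the 2 called higher under all 3 scalings. Rfxap, at 1.26 (0.73 to 1.75), was called higher under TMM but not under all 3. Irf1, an interferon-induced activator, was called higher at 1.46 (1.34 to 1.58), though it was 0.20 under total counts. Of 12 receptors that bind class I, 4 were called higher, all of them Klra genes for Ly49 receptors. Klrd1 and Cd160 were called lower. The shares over all tested genes were again 28.0% and 32.6%. Klra3 was higher under all 3 scalings, while Klra1 (0.27), Klra4 (0.03) and Klra8 (-0.22) were uncalled under total counts. Klrd1 and Cd160 were lower under all 3. Cd8a, Cd8b1 and Pirb were uncalled at -0.28, 0.48 and 0.23, and the list median was 0.36.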

How the data were processed

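Gene and transcript tables of 2 libraries of 1 mouse spleen were used. The deposited tables hold, per the file headers, expected counts, TPM and, for transcripts, a percent of the gene's TPM (IsoPct). Lengths and the posterior SD of a count are other measures that the authors deposited. Per the text deposited with the tables, reads were set against mm10 with GENCODE M4. The quantifier is not given in the sources used here. Symbols, transcript classes and coordinates came from GENCODE M21 on the same genome, where 47 of 47 member transcripts matched, 42 with equal length.

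The members and gene lists were chosen with earlier results of these data known. Named genes are all members, the 4 of each list with the highest mean TPM, any of 5 or fewer that a count turns on, and transcripts with IsoPct of at least 10. A gene that this rule names is not reported here. Expected counts were rounded. Tested genes had 50 counts or more over the 2 libraries and averaged 1 TPM or more. TMM factors came from edgeR 4.0.16 (R 4.3.3). Intervals are exact Clopper-Pearson 95%, conditional on a gene's total, and cover counting error only. DESeq2 1.42.0 size factors and total counts were alternatives. Calling was tested on simulated data. GC content is the mean over transcripts weighted by TPM, and the trend was a cubic least-squares fit. The rest used scipy 1.17.1, pandas 2.3.3, numpy 2.4.6 and matplotlib 3.10.9 under Python 3.11.15.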

Additional observations from a re-analysis of the deposited data

How the results depend on the processing

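Each side holds 1 library, so no replicate could be left out. No paired analysis was possible because the 2 libraries are the only samples. Under total counts, 1820 tested genes were higher and 7295 lower, and of the 10 genes 4 were higher and 2 lower. With a mean TPM of at least 10, 2540 genes were lower. With the GC and length trend removed, 4 of the 10 were higher and 1 lower. Of the 12425 tested genes with a GC value, 2742 were then higher and 3592 lower. The heavy chain sum had a log2 TPM ratio of -0.18 at both pseudocounts (1 and 0.1). The sum of B2m, Tap1, Tap2 and Tapbp was -0.52 under total counts and -2.46 as TPM at both pseudocounts, and at 0.74 it did not pass a 2-fold threshold. As TPM ratios at pseudocounts of 1 and 0.1, H2-T22 stood at -1.48 and -1.50, H2-M3 at -0.86 and -0.88, and Tap1 at -1.13 and -1.15, while H2-K1 (-0.84) and Tapbp (-0.05) had the same value at both. Without the trend H2-K1 stood at -0.14 and Tap1 at -0.12, and under total counts Tap1 stood at -0.21. H2-T22, uncalled under TMM, stood at -0.59 under total counts and -0.06 without the trend, uncalled in both, and was called higher at 0.80 under DESeq2 size factors. The cause was not tested. Of 70 values of single genes under alternatives, 15 changed direction, 6 lost a call and 4 gained one. The 99% interval and the 2-fold threshold leave each ratio as it is, so their share of the 70 could not change direction. The remaining alternatives (DESeq2 size factors, a 99% interval, no filter beyond 1 count, counts in place of IsoPct, every class I heavy chain) kept the counts above within 1.5 times and both sums on their side of the threshold.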
